A study of Mus musculus with 7 samples.

Results

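The 34 genes described here encode the enzymes and transporters of glycolysis and glycogen metabolism, with the isoforms that mature muscle uses and those found in most cell types. They were taken by gene symbol from the 56748 genes listed for each library, with no threshold on a value, and each symbol matched 1 gene. RNA came from MuSCs, the stem cells of skeletal muscle, isolated from hind limb muscles of adult mice by magnetic sorting and, per the labels, kept in culture in a myoblast growth medium. How long the cells were cultured before RNA was taken is not given in the sources used here. The sort kept cells positive for integrin α7 after cells with CD31, CD45 or Sca1 had been removed. There were 3 WT and 4 homozygous Jag2sm libraries, each read as direct cDNA on Nanopore flow cells. Jag2sm is a hypomorphic allele of *Jag2*, a ligand of NOTCH receptors, and it is present in every cell of the mouse, although the genotype label of these samples reads *Jag2*-/-. The mutant mice came from the line STOCK Jag2sm/J, and the study used both sexes. The background of the WT mice and the sex of each sample are not given in the sources used here, nor whether the samples of a genotype came from separate mice, so p-values measure only the spread between these samples. The comparison asked how RNA of this pathway differed between the genotypes, and whether muscle isoforms and general isoforms of the same enzyme did so alike.

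Glycolysis splits glucose into pyruvate, and glycogen is the store of glucose that muscle breaks down for contraction. Several steps are carried out by paralogous enzymes: β-enolase (*Eno3*), muscle phosphoglycerate mutase (*Pgam2*), muscle phosphofructokinase (*Pfkm*) and muscle glycogen phosphorylase (*Pygm*) accumulate as myoblasts differentiate. Their general counterparts are α-enolase (*Eno1*), *Pgam1*, the liver and platelet phosphofructokinases (*Pfkl*, *Pfkp*) and the brain and liver phosphorylases (*Pygb*, *Pygl*). Inherited loss of PFKM, PYGM, PGAM2 or ENO3 in humans causes glycogen storage diseases of muscle.

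The isoforms are separate genes, and the start of each coding sequence is shown here for the 3 pairs because reads are told apart by such differences. The lines give coding bases 1 to 60 of the canonical transcript (GENCODE M39, GRCm39), 5′ to 3′, with capitals at positions where the partners differ, in an exon of each gene at chr11:5753629-5753688 on the minus strand (*Pgam2*), chr19:41900487-41900546 on the plus strand (*Pgam1*), chr15:98010043-98010102 on the plus strand (*Pfkm*), chr10:77845458-77845517 on the minus strand (*Pfkl*), chr19:6434509-6434568 on the plus strand (*Pygm*) and chr2:150628788-150628847 on the plus strand (*Pygb*).
Pgam2: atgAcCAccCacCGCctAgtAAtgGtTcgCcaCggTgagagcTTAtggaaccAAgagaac
Pgam1: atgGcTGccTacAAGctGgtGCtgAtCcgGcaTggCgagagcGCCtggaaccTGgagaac
Pfkm: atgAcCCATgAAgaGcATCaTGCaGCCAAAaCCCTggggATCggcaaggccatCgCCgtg
Pfkl: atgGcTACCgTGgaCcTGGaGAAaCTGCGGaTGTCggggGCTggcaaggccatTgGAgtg
Pygm: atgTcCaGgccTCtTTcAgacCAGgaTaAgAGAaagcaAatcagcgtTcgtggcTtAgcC
Pygb: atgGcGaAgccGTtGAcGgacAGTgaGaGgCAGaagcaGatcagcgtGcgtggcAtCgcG
The Pgam pair differed at 20 of these 60 bases, the *Pfkm* and *Pfkl* pair at 30 and the *Pygm* and *Pygb* pair at 21. Over the whole aligned coding sequence, identity was 74.7% for *Pgam2* and *Pgam1*, 69.4% for *Pfkm* and *Pfkl*, 68.0% for *Pfkm* and *Pfkp*, 77.4% for *Pygm* and *Pygb*, 75.0% for *Pygm* and *Pygl*, and 76.7% for *Eno3* and *Eno1*. Long reads of the paired isoforms therefore differ at many bases. This does not hold for processed pseudogenes and other copies of a single isoform, such as those of *Eno1* and *Pgam1*.

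Between 187834 reads (WT replicate 1) and 1937581 reads (Jag2sm replicate 3) per library were counted on genes. WT replicate 1 stood apart, since 45.1% of what aligned fell outside annotated genes, where the other 6 libraries had 20.8% to 25.7%, and 3 reads in it amount to 16.0 CPM (counts scaled to library size). In Jag2sm replicates 1, 2 and 4, 46.0% to 50.8% of reads were not aligned, against 2.44% to 3.24% in the WT libraries and 3.07% in Jag2sm replicate 3. *Jag2* itself was at 80.7 to 116 CPM in WT and 42.4 to 78.8 CPM in Jag2sm, which does not check the labels, since Jag2sm alters the protein. Of 10 muscle stem cell and myoblast markers, 9 were tested, 1 was lower in Jag2sm (*Des*, -1.63, edgeR adjusted p = 0.0244) and 0 were higher. *Myod1* was at 697 to 830.0 CPM in WT and 615 to 806 CPM in Jag2sm, *Pax7* at 28.8 to 95.7 and 100.4 to 172 CPM, without overlap, and *Vcam1* at 5.76 to 47.2 and 35.3 to 117 CPM, and none of these 3 was called. All 14 tested of 15 genes of differentiated muscle were lower in Jag2sm (median log2 fold change -3.29), against 4.84% of all tested genes. *Myh4* and *Mb* entered the test through the WT libraries alone, so their calls add no support. The summed level of the 15 was 35278, 21289 and 23859 CPM in WT replicates 1 to 3 and 932 to 5445 CPM in Jag2sm. WT replicate 1 had the highest sum, although *Mylpf* and *Mymx* were lower in it than in the other WT libraries. It was also the lowest WT library for *Pax7* and *Vcam1*, on 5 reads and 1 read. None of the 15 was at 0 in all libraries. The summed markers of endothelial, fibro-adipogenic, immune, glial, adipocyte and red blood cells reached at most 20.7 CPM in any library, with *Kdr*, *Esam*, *Dpt*, *Lum*, *Ptprc*, *Adgre1*, *Lyz2* and *Tyrobp* at 0 throughout. Of 2 tested mural genes and 1 tested tenocyte gene, the tenocyte gene *Scx* was lower in Jag2sm, and the mural gene *Rgs5* was at 645 CPM in Jag2sm replicate 1 and at 11.5 to 40.4 CPM elsewhere.

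Of the 34 genes, 28 had enough reads to be tested. In Jag2sm MuSCs, 7 of them were lower and 0 were higher at a Benjamini-Hochberg adjusted p under 0.05 in the quasi-likelihood test of edgeR over 9489 genes, in which 4.84% of all genes were lower, 1.42% higher and 6.26% either. The 7 were the muscle isoforms *Pgam2*, *Pfkm*, *Pygm* and *Eno3*, the insulin-responsive glucose transporter *Slc2a4*, the UDP-glucose pyrophosphorylase *Ugp2* and the general enolase *Eno1*. *Slc2a4* entered the test through the WT libraries alone, in which it was high, so its call adds no support, and 6 genes remain without it. Among them, the call of *Eno1* holds only for reads assigned to that gene. With reads on near-identical copies of *Eno1* elsewhere in the genome added, its log2 fold change was 0.91 (edgeR adjusted p = 0.417). The other 21 tested genes were not called, among them the lactate dehydrogenases and the general isoforms of phosphofructokinase. At an unadjusted p under 0.05 there were 15 of the 28 genes in either direction, against 19.7% of all tested genes. DESeq2 and limma-voom called 0 genes higher, and the count of higher genes was 1 with scaling by library size alone, 3 without a filter on low counts and 3 without Jag2sm replicate 3. Over all tested genes, higher calls were 135 in the main fit and 241, 468 and 220 in these 3 settings. The median log2 fold change of the 28 was 0.09, against 0.05 over all tested genes, with 12 values below 0 and 16 above. The genotypes did not overlap for 9 genes lower in Jag2sm and 1 higher (*Hk1*), against 12.2% and 10.3% of all tested genes. All 7 called genes were among the 9 without overlap. A comparison within the 3 batches that hold both genotypes could therefore only give lower values in Jag2sm, and it adds no support. Since differentiated muscle genes moved with these 7 and RNA was measured in bulk, fewer differentiating cells and less RNA per cell cannot be told apart.

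**Figure D1:**
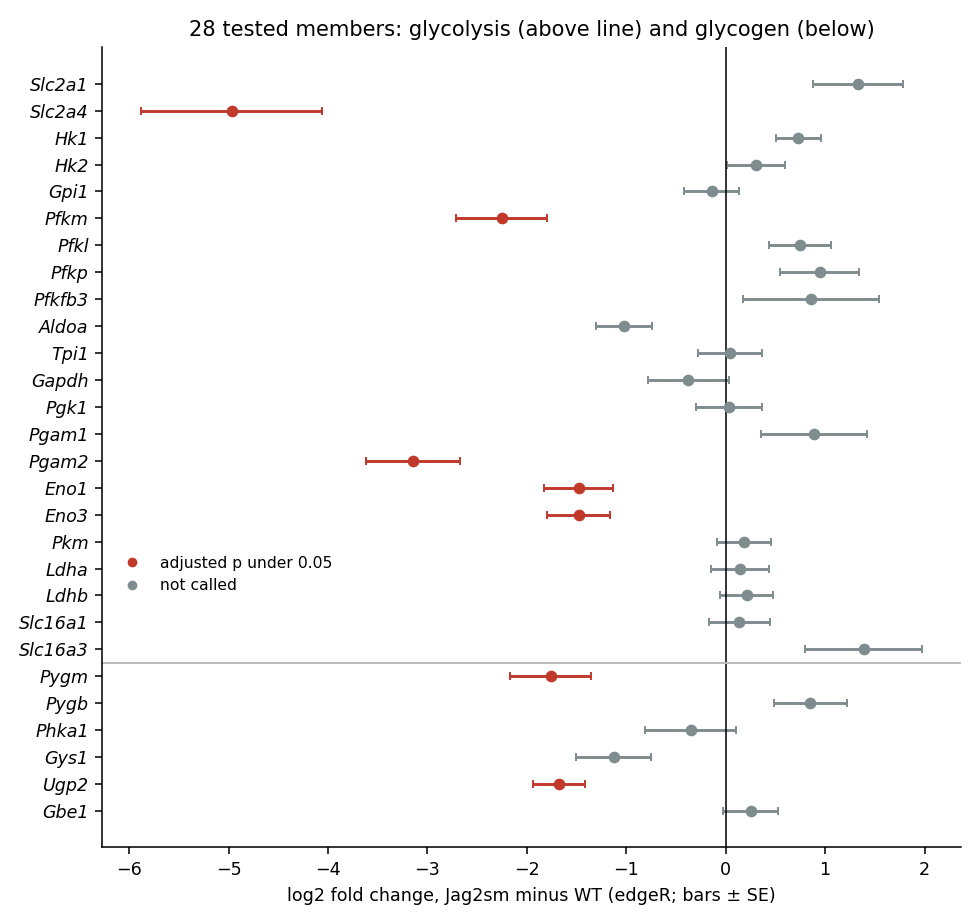
Log2 fold change of Jag2sm minus WT for the 28 tested genes, in pathway order, with bars of 1 SE from edgeR (3 WT and 4 Jag2sm libraries). The 7 genes in red passed an adjusted p of 0.05 and all lie below 0, from -1.48 (*Eno1* and *Eno3*) to -4.97 (*Slc2a4*), and genes of the other steps lie on both sides of 0.

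*Eno3*, the enolase of mature muscle (chr11:70546593-70553340, plus strand, ENSMUSG00000060600.16), fell in Jag2sm MuSCs. Its levels were 2259.6, 979.9 and 968 CPM in WT replicates 1 to 3 and 513, 445, 509 and 527 CPM in Jag2sm replicates 1 to 4. The Jag2sm libraries lay close together and below each WT library, and WT replicate 1 was far above the other WT libraries. The log2 fold change was -1.48 ± 0.32 (SE; edgeR adjusted p = 0.0217).

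*Pgam2*, which interconverts phosphoglycerates late in glycolysis (chr11:5751636-5753760, minus strand, ENSMUSG00000020475.4), had the largest log2 fold change of the 4 muscle isoforms, -3.14 ± 0.47 (SE; edgeR adjusted p = 0.00539). It was at 432, 449 and 559.5 CPM in WT and 53.7, 40.8, 17.7 and 108 CPM in Jag2sm. The WT libraries were alike, and Jag2sm replicate 4 was the highest and replicate 3 the lowest of a spread of levels in Jag2sm, all below WT.

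*Pfkm*, the phosphofructokinase that commits sugar to glycolysis in muscle (chr15:97990451-98031417, plus strand, ENSMUSG00000033065.15), was at 398, 118 and 105 CPM in WT and 38.2, 45.6, 23.7 and 49.7 CPM in Jag2sm. WT replicate 1 was again the highest, and no Jag2sm library reached the lowest WT library. This gave a log2 fold change of -2.25 ± 0.46 (SE; edgeR adjusted p = 0.0164).

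*Pygm*, which releases glucose units from glycogen in muscle (chr19:6430569-6448538, plus strand, ENSMUSG00000032648.15), was at 254, 109 and 94.8 CPM in WT and 25.5, 44.9, 26.1 and 65.2 CPM in Jag2sm. As for *Pfkm*, WT replicate 1 was on top and Jag2sm replicate 4 was nearest to WT. In edgeR the log2 fold change was -1.76 ± 0.41 (SE; adjusted p = 0.0294).

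The order of the 4 muscle isoforms across the Jag2sm libraries was set beside the summed genes of differentiated muscle, which were at 4399, 2606, 932 and 5445 CPM in Jag2sm replicates 1 to 4. *Pgam2* and *Pfkm* were lowest in replicate 3 and highest in replicate 4, as that sum was. *Pygm* was also highest in replicate 4 but lowest in replicate 1, with replicate 3 next, and *Eno3* was nearly level. In WT replicates 1 to 3 that sum was 35278, 21289 and 23859 CPM. *Eno3*, *Pfkm* and *Pygm* were likewise highest in WT replicate 1, and *Pgam2* was lowest there. The part of differentiated cells in these differences was not tested. Without WT replicate 1, the log2 fold changes were -3.23 (adjusted p = 0.00947) for *Pgam2*, -1.54 (adjusted p = 0.0148) for *Pfkm*, -1.34 (adjusted p = 0.0536) for *Pygm* and -0.98 (adjusted p = 0.00738) for *Eno3* in edgeR. Against Jag2sm replicate 3 alone, the Jag2sm library whose alignment resembled that of WT, *Pgam2* was called at -4.72 (adjusted p = 0.0108), and the values were -2.97 for *Pfkm*, -2.40 for *Pygm* and -1.41 for *Eno3*, not called. With the batch number as a replicate block, in which Jag2sm replicate 4 has no partner, *Eno3* had a log2 fold change of -1.39 (adjusted p = 0.0746) and was not called.

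**Figure D2:**
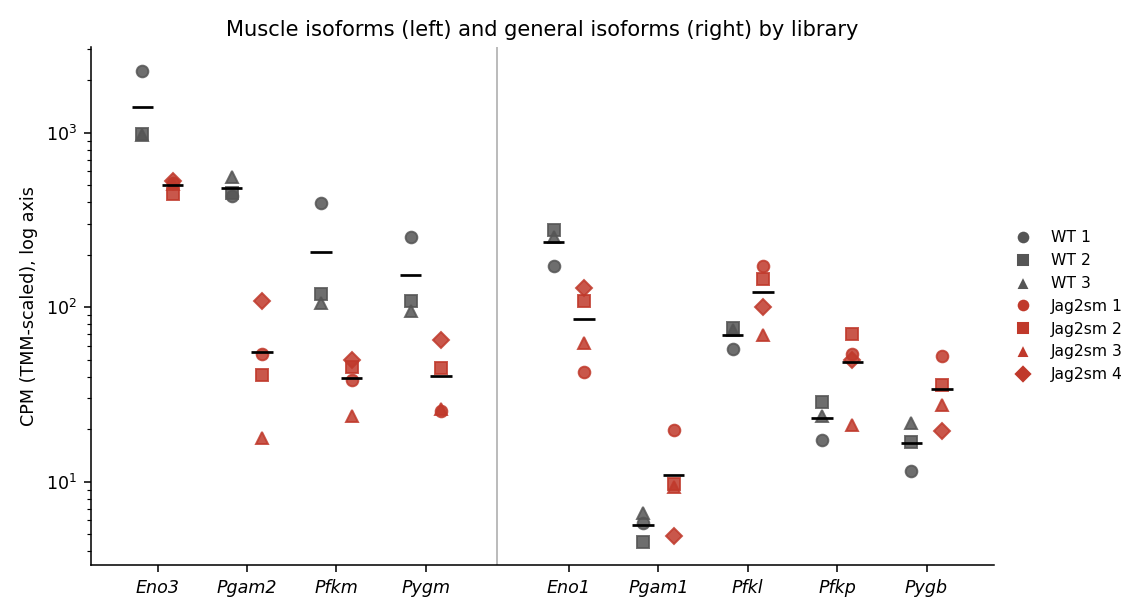
CPM on a log axis in each of the 7 libraries for the muscle isoforms (left) and the general isoforms (right), with grey symbols for WT, red symbols for Jag2sm and black lines at the genotype means. Every Jag2sm symbol lies below every WT symbol for *Eno3*, *Pgam2*, *Pfkm*, *Pygm* and *Eno1*, and the symbols of the other general isoforms overlap.

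Among the general isoforms, *Pfkl*, *Pfkp*, *Pygb* and *Pgam1* had log2 fold changes above 0 that were not called, and *Eno1* was called lower on the reads assigned to it alone. *Pfkl* was at 57.6, 76.3 and 74.0 CPM in WT and 171, 145, 69.5 and 100.3 CPM in Jag2sm, and *Pfkp* at 17.3, 28.4 and 23.7 and 53.7, 70.5, 21.2 and 49.7 CPM. In Jag2sm replicates 1, 2 and 4 both were above every WT library, and in Jag2sm replicate 3 both were below at least 1 of them. Their log2 fold changes of 0.75 ± 0.31 and 0.94 ± 0.40 (SE) were not called in edgeR (adjusted p = 0.211 and 0.217), and they were -0.014 and -0.23 against Jag2sm replicate 3 alone. Without Jag2sm replicate 3, *Pfkp* was called higher at 1.22 (adjusted p = 0.0255).

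*Pygb* was at 11.5, 16.8 and 21.8 CPM in WT and 52.3, 35.9, 27.6 and 19.6 CPM in Jag2sm, with a log2 fold change of 0.85 ± 0.37 (SE) that was not called (edgeR adjusted p = 0.229). Jag2sm replicate 4 fell inside the WT range. *Pygl* was too sparse to test, with 2 reads in WT and 16 in Jag2sm, at 0, 1.29 and 0 CPM in WT and 8.48, 4.15, 0.493 and 2.45 CPM in Jag2sm. *Pgam1* was at 5.76, 4.52 and 6.64 CPM in WT and 19.8, 9.67, 9.36 and 4.89 CPM in Jag2sm, on few reads, and entered the test through the Jag2sm libraries alone, with a log2 fold change of 0.89 ± 0.53 (SE; edgeR adjusted p = 0.394). These low levels of *Pgam1* cover only a small part of the reads of its sequence, most of which lay on copies.

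*Eno1* was the only general isoform called, and its call holds for reads assigned to *Eno1* alone. With reads on its near-identical copies added, the log2 fold change was 0.91 (edgeR adjusted p = 0.417), so the direction turned and the call ended. *Eno1* alone was at 173, 279 and 253 CPM in WT and 42.4, 109, 62.1 and 128 CPM in Jag2sm (chr4:150321073-150337027, plus strand, ENSMUSG00000063524.14), a log2 fold change of -1.48 ± 0.35 (SE; edgeR adjusted p = 0.0298). All Jag2sm libraries were below all WT libraries. Leaving out WT replicate 2 or 3 or Jag2sm replicate 1, 2 or 3 ended this call, with adjusted p of 0.122, 0.105, 0.0514, 0.0653 and 0.0546 in edgeR.

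Within a library, the ratio of a muscle isoform to its general counterpart does not depend on the scaling between libraries. The log2 ratio of *Pfkm* to the sum of *Pfkl* and *Pfkp* was 2.36, 0.18 and 0.11 in WT and -2.54, -2.23, -1.93 and -1.58 in Jag2sm. *Pfkm* thus had more reads than the other phosphofructokinases in each WT library and fewer in each Jag2sm library. The difference of the means was -2.95 (two-sided exact permutation p = 0.0286, the smallest that 35 splits allow, and 0.0762 after Benjamini-Hochberg adjustment over 4 ratios).

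The log2 ratio of *Pgam2* to *Pgam1* was 5.65, 6.53 and 6.30 in WT and 1.41, 2.04, 0.90 and 4.36 in Jag2sm. The WT libraries were close together and above all Jag2sm libraries, of which replicate 4 was nearest to WT. The difference was -3.98 (exact permutation p = 0.0571, adjusted 0.0762), in which *Pgam1* rests on 15 reads in WT and 53 in Jag2sm. The log2 ratio of *Pygm* to the sum of *Pygb* and *Pygl* was 4.15, 2.56 and 2.10 in WT and -1.23, 0.16, -0.10 and 1.55 in Jag2sm, again without overlap. In WT replicate 1 that ratio rests on 2 reads of *Pygb* and 0 of *Pygl*, so its 4.15 is imprecise. The difference for *Pygm* was -2.84 (exact permutation p = 0.0571, adjusted 0.0762), so none of these 3 ratios passed 0.05 after adjustment.

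The enolase ratio depended on the copies of *Eno1*. The log2 ratio of *Eno3* to *Eno1* was 3.69, 1.81 and 1.93 in WT and 3.58, 2.02, 3.03 and 2.04 in Jag2sm, and the genotypes overlapped. The difference was 0.19 (exact permutation p = 0.771), and the reads assigned to each enolase gene fell by about the same amount. With copies added to *Eno1*, the log2 ratio was 1.42 to 2.99 in WT and -1.47, 0.87, -0.28 and 1.22 in Jag2sm, so that *Eno3* had fewer reads than *Eno1* and its copies in Jag2sm replicates 1 and 3. Ratios per kilobase of canonical transcript used the mean length of the counterparts. By this measure *Pfkm* was at 1.13 to 5.42 times its counterparts in WT and 0.181 to 0.351 times in Jag2sm. *Pygm* was at 4.97 to 20.7 times in WT, where 20.7 is the imprecise value of WT replicate 1, and 0.494 to 3.40 times in Jag2sm. Each long read was counted once whatever its length, so the ratios without this scaling are the main ones.

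**Figure D3:**
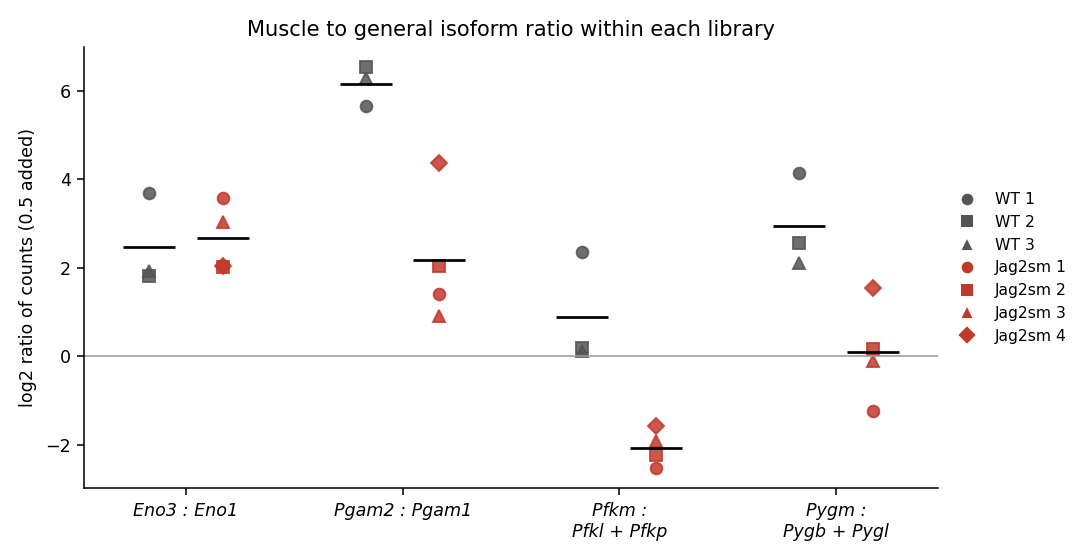
Log2 ratio of the counts of a muscle isoform to those of its general counterparts within each library, with 0.5 added to each count, grey symbols for WT, red for Jag2sm and lines at the means. The *Pgam2*, *Pfkm* and *Pygm* ratios do not overlap between genotypes, with differences of the means of -3.98, -2.95 and -2.84, and the *Eno3* ratio overlaps.

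Some members have near-identical copies elsewhere in the genome, which can take reads from them. Copies were defined as canonical transcripts of other genes with at least 90% identity to a member over at least 500 bases. *Eno3*, *Pgam2*, *Pfkm*, *Pygm*, *Slc2a4* and *Ugp2* had 0 such copies. *Eno1* had 7, and its main one was *Eno1b*, an annotated protein-coding gene on chromosome 18 that is 99.5% identical over 1652 bases. *Eno1b* was at 109.5, 85.3 and 88.2 CPM in WT and 1381, 129.9, 556 and 95.4 CPM in Jag2sm. Jag2sm replicates 1 and 3, the libraries with the lowest *Eno1*, had the highest *Eno1b*, and Jag2sm replicate 4 was within the WT range.

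With reads pooled over libraries, copies held 25.3% of the reads of *Eno1* and its copies in WT and 83.7% in Jag2sm. The copies were at 1384, 135, 556 and 98.6 CPM in Jag2sm replicates 1 to 4, so replicates 1 and 3 weigh most in the Jag2sm share. Added together, *Eno1* and its copies were at 282, 366 and 341 CPM in WT and 1427, 244, 618 and 227 CPM in Jag2sm. The sum was higher than WT in Jag2sm replicates 1 and 3 and lower in replicates 2 and 4. With copies added before the fit, the log2 fold change of *Eno1* was 0.91 ± 0.57 (SE; edgeR adjusted p = 0.417), with the direction opposite to that of *Eno1* alone. The *Eno3* to *Eno1* ratio then differed by -1.89 between genotypes (exact permutation p = 0.0571) and no longer by 0.19. Whether Jag2sm cells transcribed *Eno1b*, or reads of *Eno1* were placed on it, was not tested.

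For *Pgam1*, 92.5% of the reads lay on 2 of its 3 copies, mainly the processed pseudogene *Pgam1-ps2* on chromosome 7, which is identical over 765 bases. *Pgam1* with its copies was at 46.1, 81.4 and 96.7 CPM in WT and 212, 129, 96.6 and 115 CPM in Jag2sm, a log2 fold change of 0.77 ± 0.31 (SE; edgeR adjusted p = 0.198). Jag2sm replicates 1, 2 and 4 were above the WT libraries, and replicate 3 was just below WT replicate 3. The *Pgam2* to *Pgam1* ratio with copies differed by -4.25 (exact permutation p = 0.0286). For *Gapdh*, the glyceraldehyde phosphate dehydrogenase often used as a reference gene, 89.2% of reads lay on 42 of its 163 copies. *Gapdh* itself was at 5.76 to 25.6 CPM in WT and 11.4 to 28.3 CPM in Jag2sm, and with its copies at 133 to 224 CPM and 131 to 156 CPM, a log2 fold change of -0.33 (edgeR adjusted p = 0.447). For *Pgk1*, the phosphoglycerate kinase, copies held 45.5% of reads. Counts of *Gapdh*, *Pgk1*, *Pgam1* and *Eno1* alone are therefore not levels of these enzymes' RNA in this data set.

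**Figure D4:**
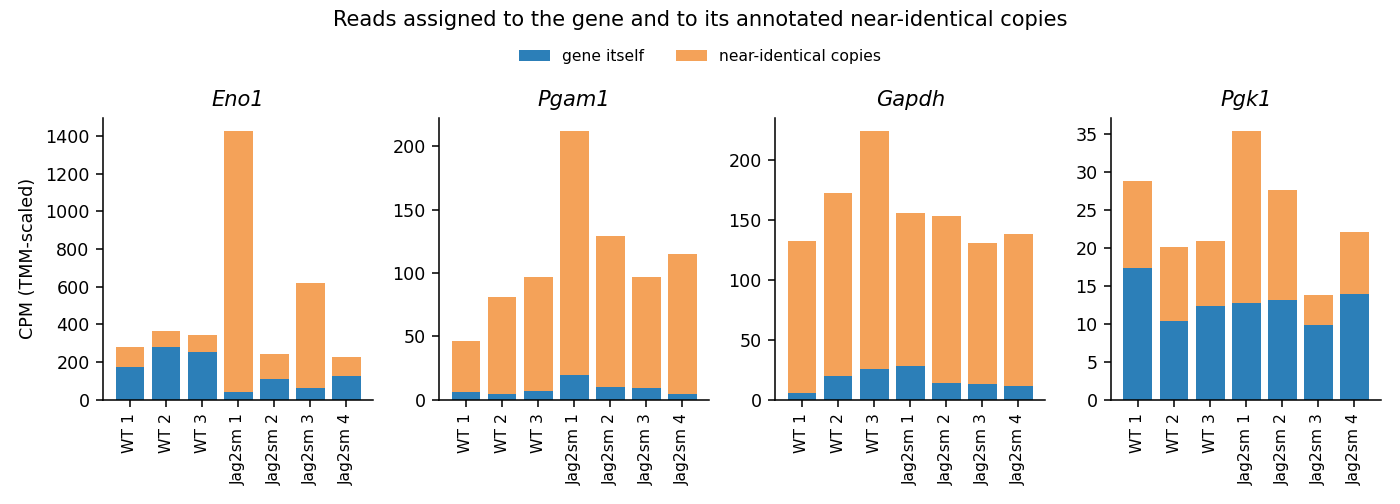
Stacked CPM in each library for reads assigned to *Eno1*, *Pgam1*, *Gapdh* and *Pgk1* (blue) and to their near-identical copies (orange), each panel on its own axis from 0. Orange outweighs blue for *Pgam1* and *Gapdh* in every library, and for *Eno1* in Jag2sm replicates 1 to 3, most of all in replicate 1 where *Eno1* and its copies reach 1427 CPM.

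Glucose enters the cell through facilitative transporters. *Slc2a4* (GLUT4), the insulin-responsive transporter of muscle and fat (chr11:69831006-69839070, minus strand, ENSMUSG00000018566.15), was at 144, 24.6 and 16.1 CPM in WT and 0, 0.691, 1.48 and 2.45 CPM in Jag2sm. These values rest on 80 reads in WT and 7 in Jag2sm, of which 25 were in WT replicate 1, and the gene passed the filter on low counts through the WT libraries alone. All Jag2sm libraries were below all WT libraries, which that filter favours. The log2 fold change was -4.97 ± 0.91 (SE; edgeR adjusted p = 0.0109), and -3.92 (adjusted p = 0.00689) without WT replicate 1.

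*Slc2a1* (GLUT1), the transporter of most proliferating cells, was at 5.76, 25.9 and 31.3 CPM in WT and 84.8, 90.5, 28.1 and 56.2 CPM in Jag2sm. Jag2sm replicates 1, 2 and 4 were above all WT libraries, and replicate 3 was among them. Its log2 fold change of 1.33 ± 0.45 (SE) was not called (edgeR adjusted p = 0.117), and without Jag2sm replicate 3 it was 1.59 (adjusted p = 0.0201). *Slc2a3* (GLUT3), a high-affinity transporter, was too sparse to test, with 0 reads in WT and 20 in Jag2sm. Among the lactate carriers, *Slc16a3* (MCT4) was at 51.9, 44.0 and 49.3 CPM in WT and 242, 146, 28.1 and 92.9 CPM in Jag2sm, and *Slc16a1* (MCT1) at 28.8 to 80.8 CPM in WT and 39.6 to 79.1 CPM in Jag2sm. For *Slc16a3*, Jag2sm replicates 1, 2 and 4 were above all WT libraries and replicate 3 below them, with a log2 fold change of 1.39 ± 0.59 (SE; edgeR adjusted p = 0.216) that was 1.74 (adjusted p = 0.0159) without Jag2sm replicate 3 and -0.73 against that library alone.

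Hexokinases trap glucose in the cell as its phosphate. *Hk1*, the general form, was at 46.1, 67.9 and 58.8 CPM in WT and 117, 115, 80.3 and 88.9 CPM in Jag2sm, and was the only tested member for which all Jag2sm libraries were above all WT libraries. Its log2 fold change of 0.73 ± 0.23 (SE) was not called (edgeR adjusted p = 0.0915), although scaling by library size alone, which moved the median of all genes to 0.21, gave 0.89 (adjusted p = 0.0471). *Hk2*, the form prominent in muscle and fat, was at 33.2 to 69.2 CPM in WT and 38.9 to 67.9 CPM in Jag2sm, with a log2 fold change of 0.30 ± 0.29 (SE; adjusted p = 0.626).

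The pyruvate and lactate steps showed no called difference. *Ldha*, which reduces pyruvate to lactate, was at 1994, 1775 and 1954 CPM in WT and 2839, 2283, 1338 and 1969.5 CPM in Jag2sm, and *Pkm*, the pyruvate kinase, at 986, 1542 and 1196 and 1828, 1392, 1192 and 1255 CPM. The genotypes overlapped for both, with log2 fold changes of 0.14 ± 0.30 and 0.19 ± 0.27 (SE; edgeR adjusted p = 0.845 and 0.763). Counts of *Pkm* do not separate its splice forms. *Gpi1* (-0.14), *Tpi1* (0.04), *Ldhb* (0.21) and *Slc16a1* (0.14) had log2 fold changes within 0.3 of 0 and adjusted p from 0.717 to 0.978, with SE from 0.27 to 0.32. *Pfkfb3*, which makes the activator of phosphofructokinase, entered the test through the Jag2sm libraries alone and was at 0 to 7.59 CPM in WT and 2.46 to 19.8 CPM in Jag2sm, 0.86 ± 0.68 (SE; adjusted p = 0.539).

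*Aldoa*, the aldolase of muscle and of most other tissues, lay just outside the called genes. It was at 986, 532 and 562 CPM in WT and 382, 373, 248 and 346 CPM in Jag2sm, without overlap. Its log2 fold change was -1.02 ± 0.28 (SE; edgeR adjusted p = 0.058), and it was called in DESeq2 (adjusted p = 0.0113) and limma-voom (0.0439). *Aldoc*, the aldolase of brain, had 1 read in WT and 9 in Jag2sm and was not tested.

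In glycogen metabolism the falls included enzymes of both synthesis and breakdown. *Ugp2*, which makes the UDP-glucose that glycogen is built from (chr11:21270384-21321276, minus strand, ENSMUSG00000001891.17), was at 202, 91.1 and 119 CPM in WT and 41.0, 38.7, 38.4 and 40.8 CPM in Jag2sm. The Jag2sm libraries were almost the same, and all were below WT. The log2 fold change was -1.68 ± 0.26 (SE; edgeR adjusted p = 0.00605), and -1.41 (adjusted p = 0.00412) without WT replicate 1. *Gys1*, the glycogen synthase of muscle, was at 248, 93.7 and 72.1 CPM in WT and 38.2, 60.1, 59.6 and 61.1 CPM in Jag2sm, also without overlap, and its log2 fold change of -1.13 ± 0.38 (SE) was not called (edgeR adjusted p = 0.113). *Gbe1*, the branching enzyme, was at 14.2 to 17.3 CPM in WT and 15.6 to 20.7 CPM in Jag2sm (0.25 ± 0.28, adjusted p = 0.68). *Phka1*, the muscle regulatory subunit of phosphorylase kinase, was at 7.59 to 28.8 and 7.07 to 16.3 CPM (-0.35 ± 0.46, adjusted p = 0.728). Its catalytic partner *Phkg1* had 2 reads in WT and 4 in Jag2sm, the glycerol phosphate dehydrogenase *Gpd1* had 5 reads in WT and 4 in Jag2sm and the muscle fructose bisphosphatase *Fbp2* had 2 reads in WT and 1 in Jag2sm, and none of these 3 was tested.

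Of 19 further glycogen genes, 10 were tested, with a median log2 fold change of -0.75. In Jag2sm 3 were lower and 0 were higher, against 4.84% and 1.42% of all tested genes. *Gyg1* (glycogenin), the protein primer of glycogen, was at 288, 124 and 124 CPM in WT and 32.5, 22.1, 30.1 and 38.3 CPM in Jag2sm. Its log2 fold change was -2.43 ± 0.33 (SE; edgeR adjusted p = 0.00346). *Stbd1*, which tethers glycogen to membranes, was at 104 to 219 CPM in WT and 36.0 to 66.0 CPM in Jag2sm, with -1.47 ± 0.30 (SE; adjusted p = 0.0157, and 0.0605 without Jag2sm replicate 2). Neither overlapped between genotypes, as was the case for 12.2% of all tested genes in this direction.

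Beyond pyruvate, 14 of 20 genes of pyruvate entry and its transporters were tested, with a median log2 fold change of -0.53. Of these, 3 were lower and 1 was higher, against 4.84% and 1.42% of all tested genes. Each of these 4 calls was lost when certain single libraries were left out. *Pdha1* and *Pdhb* encode the E1 subunits of pyruvate dehydrogenase, which feeds pyruvate into mitochondria. *Pdha1* was at 40.8 to 51.9 CPM in WT and 15.2 to 24.0 CPM in Jag2sm, -1.07 ± 0.25 (SE; edgeR adjusted p = 0.0303), and was not called without WT replicate 2 or 3 or Jag2sm replicate 2 or 3 (0.0548 to 0.107). *Pdhb* was at 122 to 213 and 42.4 to 89.1 CPM, -1.13 ± 0.29 (SE; adjusted p = 0.0484), and was not called with the replicate block (0.0614) or when any 1 library was left out (0.0619 to 0.114). *Pdk2*, a kinase that inhibits the same complex, was at 27.8 to 144 and 9.85 to 13.8 CPM, -2.17 ± 0.52 (SE; adjusted p = 0.0318). WT replicate 1 held the top of that range, and without it the *Pdk2* log2 fold change was -1.47 (adjusted p = 0.0167). When any 1 Jag2sm library was left out, *Pdk2* was not called (0.0643 to 0.0827). *Txnip*, which restrains glucose uptake, was the gene called higher, and it entered the test through the Jag2sm libraries alone, so its call adds no support. It was at 1.90 to 5.76 CPM in WT and 9.85 to 29.7 CPM in Jag2sm on 9 reads in WT and 83 in Jag2sm, with a log2 fold change of 2.32 ± 0.58 (SE; adjusted p = 0.0415) that was not called in limma-voom (0.108) or when any 1 WT library or Jag2sm replicate 1 or 2 was left out (0.0609 to 0.204).

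The pentose phosphate branch, which draws on glucose phosphate for NADPH and ribose, had 6 of 7 genes tested. Of these, 1 was higher and 0 were lower, against 1.42% and 4.84% of all tested genes. All 6 log2 fold changes were above 0 with a median of 0.51. The called gene was *Pgd*, the 6-phosphogluconate dehydrogenase, at 80.7, 93.1 and 84.4 CPM in WT and 167, 156, 125 and 173 CPM in Jag2sm. Its log2 fold change was 0.83 ± 0.21 (SE; edgeR adjusted p = 0.0392), and it was not called with the replicate block (adjusted p = 0.176) or without WT replicate 2 or 3 or Jag2sm replicate 1, 2 or 4 (0.0745 to 0.177). Of 22 further glycolysis genes, 7 were tested and 0 called in edgeR, with a median of 0.16. At an unadjusted p under 0.05 there was 1, against 19.7% of all tested genes. Those with the smallest p were *Gpd1l* (-0.98 ± 0.42, adjusted p = 0.216) and *Pck2* (0.82 ± 0.40, adjusted p = 0.297). Of 20 hypoxia-inducible genes outside glycolysis, 15 were tested and 0 called in edgeR, and 2 were called higher by DESeq2. In edgeR 4 of the 15 had an unadjusted p under 0.05, against 19.7% of all tested genes. The median was 0.37, with 13 values above 0. *Vegfa* (0.92 ± 0.25, adjusted p = 0.0582) and *Ddit4* (1.56 ± 0.46, adjusted p = 0.0763) had the smallest p.

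**Figure D5:**
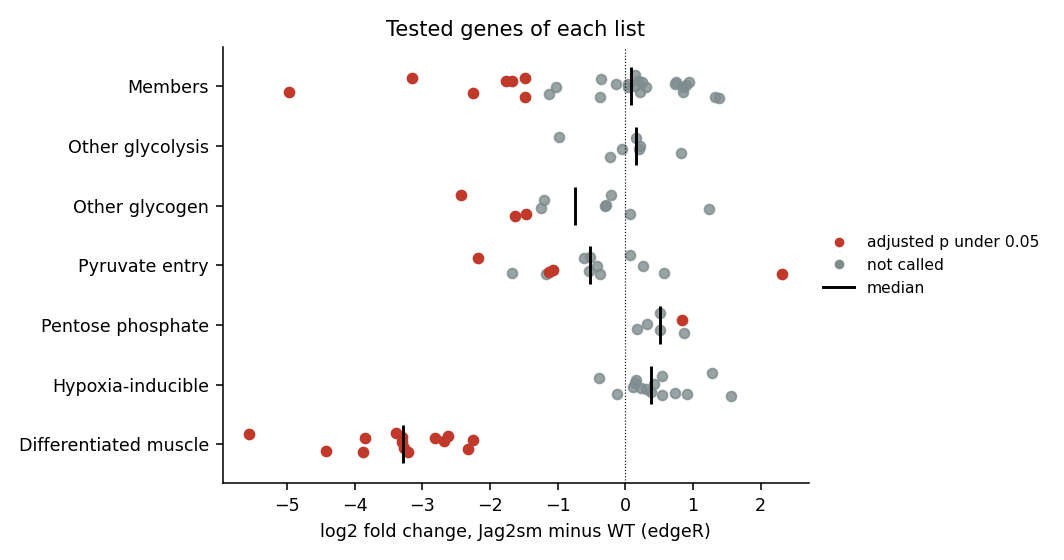
Log2 fold change of Jag2sm minus WT for the tested genes of 7 lists, with called genes in red, others in grey and a black line at each median. The medians of the members (0.09) and of other glycolysis genes (0.16) lie near 0, that of other glycogen genes at -0.75 and that of differentiated muscle genes at -3.29.

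The promoters of the called genes were searched because MyoD family proteins bind E-boxes and MEF2 proteins bind an AT-rich element at many muscle genes. RefSeq windows from 250 bases before to 50 bases after each start (GRCm38.p6) were found for 31 of the 34 genes, without *Slc2a4*, *Slc2a3* and *Gpd1*, and for 6 of the 7 lower genes. The E-box CAGCTG was in a window of 10 of the 31 genes and of 4 of the 6 lower genes (*Pgam2*, *Eno3*, *Pygm* and *Ugp2*), against 18.3% of all genes in the table. The E-box CACCTG, read on both strands, was in 7 of 31 (*Pfkm* and *Pgam2* among the lower genes), against 22.6%. The MEF2 element was in 1 of 31, *Pgam2*, against 3.70%. The MCAT element CATTCC was in 5 of 31 (*Pgam2*, *Eno1* and *Eno3* among the lower genes), against 16.6%. The hypoxia core ACGTG was in 19 of 31 and GCGTG in 19, against 21.8% and 35.2%, and the Sp1 element GGGCGG in 21 of 31, against 38.2%. Stretches of 30 bases before the start are shown for the lower genes with a CAGCTG E-box or MEF2 element there, the element in capitals, at chr11:5803904-5803933 and chr11:5803857-5803886 (*Pgam2*, minus strand), chr19:6384228-6384257 and chr19:6384378-6384407 (*Pygm*, plus strand) and chr11:21370743-21370772 (*Ugp2*, minus strand).
Pgam2 Ebox: gttaccaggtgcCAGCTGgttatggggctt
Pgam2 MEF2: ttttgtgagaCTATTTTTAAgttcagctcc
Pygm distal Ebox: gaagaagtgggtCAGCTGtgaacacacccc
Pygm proximal Ebox: agccaggctttaaatcccctcaCAGCTGgg
Ugp2 Ebox: ggaggccgcgggCAGCTGtctgcccgagtg
These matches describe letters only. No binding was measured in these samples.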

How the data were processed

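MuSC RNA from 3 WT and 4 Jag2sm samples was measured as direct cDNA. The authors called bases with dorado, aligned with minimap2 2.17 (GRCm39) and deposited raw htseq counts per gene for each library. Their fold changes, p-values and adjusted p-values from DESeq2 (R 4.3.0), in a separate table, were not used. The annotation release, and the htseq version and strand setting, are not given in the sources used here, so counts of genes whose exons overlap another gene on either strand are uncertain. Among the called members this concerns *Pfkm* (with *Senp1*, and *Gm26513* on its own strand), *Pgam2* (*Dbnl*), *Slc2a4* (*Ybx2*), *Ugp2* (*Vps54*) and *Eno3*, and not *Pygm* or *Eno1*. Of the further pathway genes named as called, it concerns *Gyg1* (*Hltf*), *Pdha1* (*Map3k15*), *Pdhb* (*Pxk*), *Pdk2* (*Samd14*) and *Txnip* (*Gm15441*), and not *Stbd1* or *Pgd*.

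The 5 summary counts of each file (44.99% to 75.19% of all reads) were left out of library sizes. Counts were tested in R 4.3.3 with edgeR 4.0.16 (filterByExpr with minimum count 10 and total 15, TMM, glmQLFit and glmQLFTest) over 9489 genes, Jag2sm against WT, with Benjamini-Hochberg adjusted p under 0.05 called. CPM are TMM-scaled. Ratios used 0.5 added to each count and two-sided exact permutation over 35 splits. Copies were found with blastn 2.17.0 among GENCODE M39 canonical transcripts, in which 56017 of 56748 identifiers were found. On simulated counts for this comparison over 9489 genes, edgeR recovered 90% of genes changed by a log2 fold of 2 and 92% at 3. These counts were drawn with a single dispersion for all genes (square root 0.263) and no library apart. The shares therefore do not hold for genes that vary more between libraries. The limit of 3 reads covers counting error only. Each SE was calculated as the absolute log2 fold change divided by the square root of the edgeR F statistic, and it includes the spread between libraries.

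The labels give each library a batch number equal to its replicate number, so WT and Jag2sm replicates 1 to 3 pair by batch. Deviations of same-numbered libraries correlated at 0.0740, 0.0144 and 0.0539 across genes, and those of differently numbered libraries at -0.0944 to 0.0644. The study names no covariate, so the block was an alternative.

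The members and lists were chosen with earlier results of these data known. All members are accounted for. Values in every library are given for the 4 muscle isoforms, their general counterparts and called members, and for others where their step needs them. Of other lists, called genes are named, or else the 2 with the smallest p, except 1 called gene that is not reported here. Alternatives were DESeq2 1.42.0, limma-voom (limma 3.58.1), other scalings and filters, a robust fit, the replicate block, leaving out each library and Jag2sm replicate 3 alone. Adding the counts of copies was chosen after seeing the data.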

Additional observations from a re-analysis of the deposited data

Results flagged for a closer look

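Among 44 sets of the 4 Jag2sm values tested for a library apart from the rest, 2 had one, and chance gives about 1 in 20. *Gys1* in Jag2sm replicate 1 was at 38.2 CPM against 59.6 to 61.1 CPM in the other Jag2sm libraries, a gap of 0.934 of the range. *Gapdh* in Jag2sm replicate 1 was at 28.3 CPM against 11.4 to 13.8 CPM, a gap of 0.857 of the range, where most reads of the sequence lie on copies. Groups of 3 were not tested in this way.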

How the results depend on the processing

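The count of 7 lower members was 6 to 9 with other tools, scalings, filters, the replicate block or copies added, 3 to 7 with 1 library left out (4 without Jag2sm replicate 1 and 3 without Jag2sm replicate 2) and 1 against Jag2sm replicate 3 alone, where 1 library stands for Jag2sm and is assumed to vary like WT. *Pgam2* and *Ugp2* were called in every fit that left out 1 library. *Slc2a4* failed a minimum of 10 counts in every library. *Eno3* was lost without Jag2sm replicate 1 or 2 (adjusted p = 0.0547 and 0.0857), *Pfkm* without Jag2sm replicate 2 (0.0514), and *Pygm* without WT replicate 1 or 2 or Jag2sm replicate 1, 2 or 3 (0.0513 to 0.0803). The count of 0 higher members was 1 with library size alone, 3 without a filter, and 0 to 3 with 1 library left out (3 without Jag2sm replicate 3). Of the further pathway genes, 6 lower became 11 without a filter, 1 to 5 with 1 library left out (1 without Jag2sm replicate 2, 3 without Jag2sm replicate 3) and 0 against Jag2sm replicate 3 alone. The 2 higher ones became 1 in limma-voom, with a minimum of 10 counts in every library and with the replicate block, 0 to 2 with 1 library left out and 0 against Jag2sm replicate 3 alone. The 0 hypoxia-inducible genes called higher became 2 in DESeq2, 1 with library size alone, 3 without a filter, 1 with a minimum of 10 counts in every library and 0 to 3 with 1 library left out (3 without Jag2sm replicate 3). Over all tested genes, lower calls were 459 of 9489 in the main fit and 780 of 25189 without a filter. They were 346 of 9384 without Jag2sm replicate 1, 221 of 9155 without replicate 2 and 396 of 9224 without replicate 3. Higher calls were 135 in the main fit, 206 in DESeq2, 241 with library size alone, 468 without a filter and 220 without Jag2sm replicate 3. With a minimum of 10 counts in every library they were 43 of 2981.

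The *Eno3* to *Eno1* difference turned to -1.89 with copies and ranged from -0.14 to 0.79 with 1 library left out. The *Pgam2* ratio difference passed 0.05 before adjustment when libraries were thinned to the smallest (-4.47) or copies were added (-4.25), and the *Pygm* one when thinned (-2.76). The *Pfkm* one was -3.11 with the replicate block, -3.34 to -2.21 with 1 library left out and -2.81 against Jag2sm replicate 3 alone, in designs too small to reach 0.05. Reversed values of single genes were 0.91 for *Eno1* with copies and, against Jag2sm replicate 3 alone, -0.014 for *Pfkl*, -0.23 for *Pfkp* and -0.73 for *Slc16a3*. The replicate block ended the calls of *Eno3*, *Pdhb* and *Pgd* and no other printed one. The causes were not tested. WT replicate 1 limits what low genes can show, since 3 reads in it are 16.0 CPM.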

Other observations

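The regulatory subunits that bring protein phosphatase 1 to glycogen were too sparse to test, and they are given here after their values were seen. *Ppp1r3a*, the subunit of striated muscle, had 15 reads in WT and 1 in Jag2sm, at 23.1, 4.52 and 3.79 CPM in WT and 0, 0.691, 0 and 0 CPM in Jag2sm. *Ppp1r3c* had 18 reads in WT and 2 in Jag2sm, at 23.1, 6.46 and 3.79 CPM in WT and 0, 0, 0 and 1.63 CPM in Jag2sm. Both were below each WT library in all 4 Jag2sm libraries, as were 12.2% of all tested genes, on 4 reads each in WT replicates 1 and 3. In Jag2sm replicate 1, 3 reads amount to 4.47 CPM, so its 0 cannot be told from the 3.79 CPM of WT replicate 3. *Ppp1r3b*, the subunit best known from liver, went the other way, with 2 reads in WT and 30 in Jag2sm, at 0, 0.646 and 0.948 CPM in WT and 2.83, 10.4, 0.493 and 9.78 CPM in Jag2sm, where replicate 3 was inside the WT range.

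The regulatory subunits of phosphorylase kinase other than *Phka1* were also singled out after their values were seen. *Phka2* was at 11.5, 14.2 and 15.2 CPM in WT and 5.66, 6.91, 4.93 and 6.52 CPM in Jag2sm, and *Phkb* at 92.2, 39.4 and 33.2 and 24.0, 19.3, 21.7 and 16.3 CPM. Neither overlapped between genotypes, as was the case for 12.2% of all tested genes in this direction. *Phka2* entered the test through the WT libraries alone. Their log2 fold changes of -1.24 ± 0.34 and -1.20 ± 0.34 (SE) were not called in edgeR (adjusted p = 0.0611 and 0.0679).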
